A study of Mus musculus with 2 samples.

Results

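The nuclear-encoded respiratory chain genes were followed in mouse mammary basal cells grown in a 3D matrix gel, alone (ctrl) or together with M2-like macrophages (M2). They were chosen by gene symbol: the Nduf genes of the a, b, c, s and v series, Sdha to Sdhd, the Uqcr genes with Cyc1, Cox4 to Cox8, and the Atp5 genes, without Ndufa4l2 and without pseudogene names. These names picked 84 of the 49492 genes in the count table. Each condition is 1 RNA-seq library, so no difference between them has a replicate check.

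Both libraries come from primary wild-type (WT) epithelial cells of the mammary gland of adult female mice, sorted as basal cells before the culture. By flow cytometry, the study found mostly luminal cells in such cultured colonies of both groups, with a larger basal share beside the macrophages. The ctrl library had no treatment, and the M2 library came from cells that shared their wells with the macrophages for 11 to 14 days. By the methods of the study, the macrophages came from bone marrow, were polarised with interleukins and stayed in a trans-well insert, apart from the gel that was harvested. Although the series text speaks of a microarray, the deposited values count sequencing reads. The number of mice behind each library is not given in the sources used here.

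The respiratory chain sits in the inner mitochondrial membrane. Complex I takes electrons from NADH and complex II takes them from succinate. Both pass them through ubiquinone to complex III, and complex III hands them through cytochrome c to complex IV, where oxygen is reduced. Complex V, the ATP synthase, makes ATP from the proton gradient that complexes I, III and IV build. Most subunits are encoded in the nucleus, while a small catalytic set is encoded in mitochondrial DNA, so the complexes draw on both genomes. Luminal and basal cells of the mammary gland both carry these complexes, and several complex IV subunits also exist as isoforms that prevail in muscle, lung or testis.

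Sequencing gave 26912610 reads for ctrl and 29413844 for M2. The 84 genes took 0.569% of the ctrl reads (95% Wilson interval 0.566% to 0.572%) and 0.583% of the M2 reads (0.580% to 0.585%). Intervals here cover counting error only. Summed basal markers (Krt5, Krt14, Trp63, Acta2, Mylk and Oxtr) stood at 6618 CPM (reads scaled to a common library size) in ctrl and 6609 CPM in M2, and 6 luminal markers at 2537 and 2081 CPM. Of the luminal markers, Elf5 (-1.11), Kit (-1.67), Esr1 (-1.94) and Prlr (-1.59) were lower at the 2-fold thresholds, while Krt8 (0.21) and Krt18 (-0.05) were not. Of the basal markers Oxtr was lower (-2.19). Krt5 (0.50), Krt14 (-0.32), Trp63 (0.15), Acta2 (0.04) and Mylk (-0.79) stayed within 2-fold. The part of these marker differences in the differences of the respiratory chain genes was not tested. Of 8 macrophage markers, 5 had no more than 3 reads in ctrl and 5 in M2, not all of them the same genes. Adgre1, Tyrobp and Fcer1g had 0 in both, and Lyz2 had 3 and 1. Mrc1 had 1 and 5 reads, Ctss 5 and 2, Csf1r 94 and 92, and Cd68 170 and 165. Differences are given as log2 of M2 over ctrl after scaling by library size. In bulk RNA, fewer cells of a type and less RNA per cell cannot be told apart.

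Nuclear respiratory factor 1 (NRF1) is a known regulator of these genes, so its core letters were sought in the promoter windows that RefSeq gives for GRCm38.p6, from 250 bases before to 50 after the start of a gene. A window was matched to 69 of the 84 genes, 3 of them through a synonym. The letters CGCATGCG, which read the same on both strands, occurred in 9 of these 69 genes (13.04%) and in 484 of 17492 protein-coding genes with a window (2.77%). The 9 matches are shown as 30 bases each, 5′ to 3′ on the strand of the gene, with the NRF1 letters in capitals, because they hold members of complexes I, III, IV and V that were higher, lower and level in the M2 library.
Ndufa8: gtcgctggagaCGCATGCGcagatggtacc
Ndufa11: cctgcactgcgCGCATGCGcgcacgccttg
Uqcrc1: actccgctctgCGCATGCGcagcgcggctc
Uqcr11: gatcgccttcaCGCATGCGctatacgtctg
Cox6a1: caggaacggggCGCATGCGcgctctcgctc
Atp5g2: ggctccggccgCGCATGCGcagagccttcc
Atp5j: aggccagaataCGCATGCGtacagtgcagt
Atp5k: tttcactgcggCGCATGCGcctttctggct
Atp5l: aaccaataaCGCATGCGcatttcccccact

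On GRCm38.p6 these stretches lie at chr2:36049329-36049358 (minus strand) for Ndufa8, chr17:56717692-56717721 (plus) for Ndufa11, chr9:108936668-108936697 (plus) for Uqcrc1, chr10:80406808-80406837 (minus) for Uqcr11 and chr5:115349101-115349130 (minus) for Cox6a1. Those of complex V lie at chr15:102671070-102671099 for Atp5g2, chr16:84835105-84835134 for Atp5j, chr5:108434430-108434459 for Atp5k and chr9:44920963-44920992 for Atp5l, all on the minus strand. By GENCODE release M21 the letters of Ndufa11, Cox6a1 and Atp5l fall before the gene, and the other 6 fall in an untranslated part of an exon. Those of Atp5j, Ndufa11 and Atp5l also lie within another gene, namely Gabpa, Vmac and Gm30934. The letters lay within 60 bases of the RefSeq start in Ndufa8, Ndufa11, Uqcr11, Uqcrc1, Atp5g2 and Atp5k. The differences of these genes were 0.42, -0.43, 0.12, -0.09, 0.19 and 0.61, in that order. The median difference was 0.15 over the 9 genes with the letters and 0.19 over the 58 tested genes that have a window without them. A match of letters is a description of the sequence and does not show binding.

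Of the 84 genes, 80 had at least 10 reads over both libraries and entered a two-sided exact binomial test across 19233 genes, with p-values adjusted by the Benjamini-Hochberg method. This test sets the reads of 1 library against those of another and does not test the conditions. At the thresholds of the study, a fold above 2 and an adjusted p under 0.05, 1 of the 80 was higher in M2 (Cox4i2) and 0 were lower, whereas 8.16% of all tested genes were higher and 6.55% were lower. Many low genes pass such a fold, so the count was repeated over genes with at least 10 CPM in both libraries. There 0 of 74 members passed in either direction, beside 3.16% of genes higher and 2.21% lower.

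At a fold of 1.3 and an adjusted p under 0.05, 11 of the 80 (13.8%) were higher in M2 and 2 (2.50%) were lower. The share over all tested genes was 17.3% higher and 16.0% lower. With at least 10 CPM in both libraries, 8 of 74 members (10.8%) were higher and 1 (1.35%) was lower, beside 14.7% and 13.4% of all genes. Whether these shares of members differ from those of all genes was not tested. The count of higher members moved with the scaling: it was 7 with plain library totals. The share of all genes under that scaling is not given here.

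**Figure D1:**
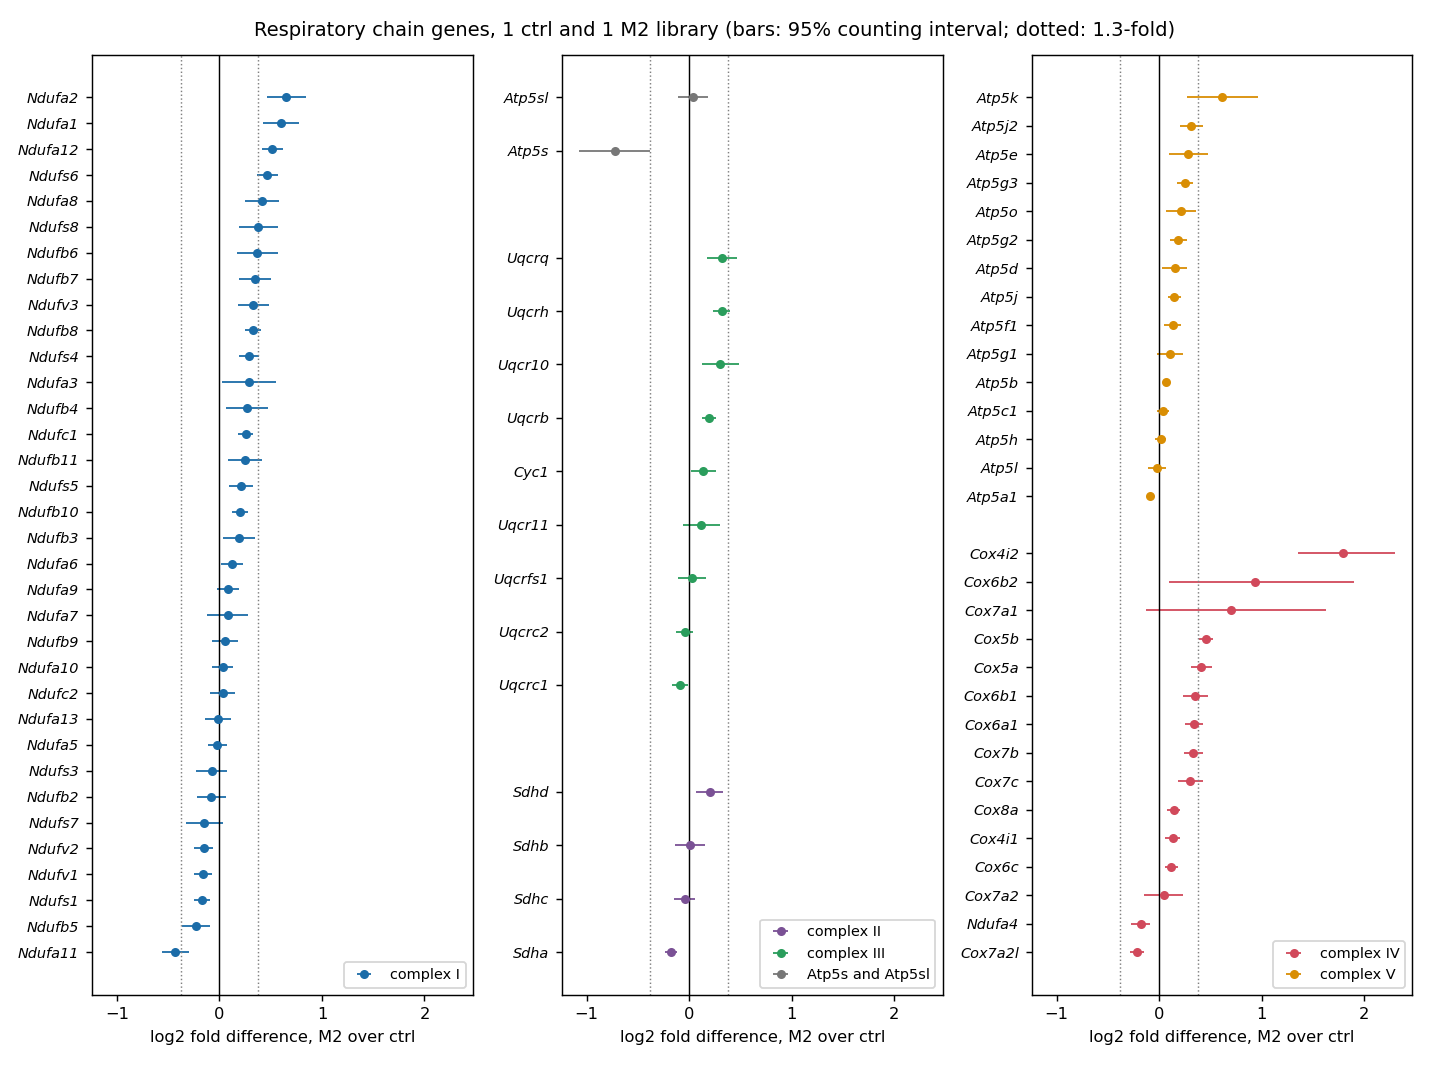
Log2 fold difference, M2 over ctrl, of the tested genes by complex (points, 1 gene left out), with the 95% counting interval (bars) and dotted lines at a fold of 1.3. Cox4i2 stands farthest to the right at 1.79, Atp5s farthest to the left at -0.72, and most points lie between the dotted lines.

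The genes lay close to each other and slightly to the M2 side. Their median difference was 0.15, with the middle of the set between 0.01 and 0.32 (quartiles), and 61 of 80 (76.2%) were above 0. With plain library totals the median was 0.09, and those of complexes I to V were 0.14, -0.08, 0.08, 0.27 and 0.09. Over all tested genes the median was -0.003, the quartiles were -0.32 and 0.35, and 49.7% were above 0. The width between the quartiles was 0.30 for the respiratory chain genes and 0.67 for all genes. Among genes with at least 10 CPM in both libraries the widths were 0.29 and 0.44, and 87.8% of the members against 71.8% of all such genes stayed within a fold of 1.3. The 95% counting interval lay wholly above 0 for 47 members (58.8%, against 28.8% of all tested genes) and wholly below 0 for 11 (13.8%, against 27.9%). Small differences leave the interval easily at the read counts of these genes.

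**Figure D2:**
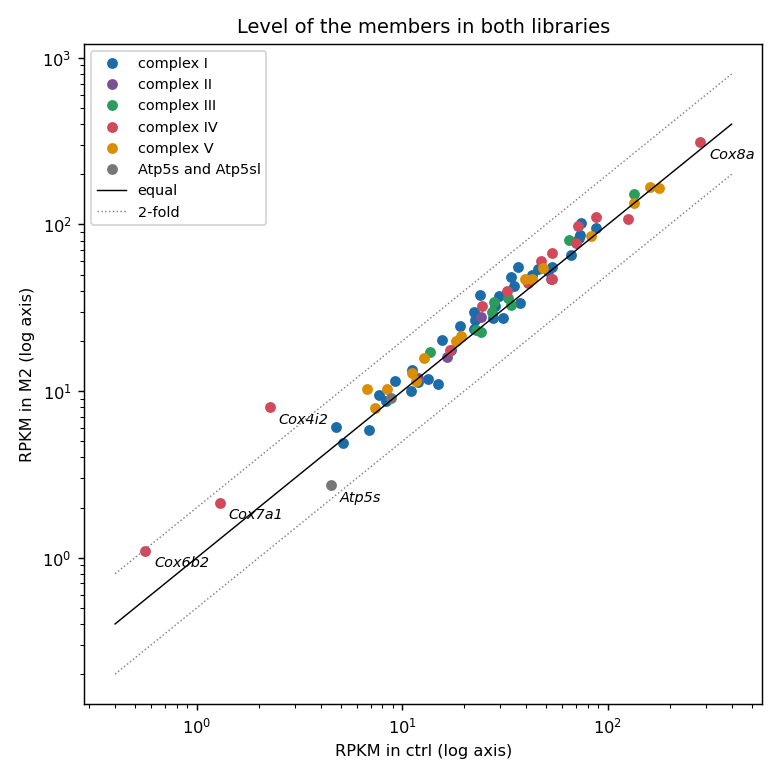
Level of each gene with reads in both libraries, as RPKM (reads per kilobase, scaled to library size), ctrl on the x axis and M2 on the y axis, both log axes, coloured by complex. The points follow the line of equal level over more than 2 orders of magnitude, from Cox6b2 at the lower end to Cox8a at 281.7 and 310.5 RPKM, and Cox4i2 lies beyond the dotted 2-fold line.

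Complex I, the NADH dehydrogenase, is the largest of the complexes, and all 35 of its genes were tested. Its median difference was 0.20, and 6 genes were higher and 1 lower at a fold of 1.3. Its core subunits, which carry the flavin, the iron-sulfur clusters and the ubiquinone site, lay below its accessory subunits. The median was -0.15 over the 7 core genes, of which 2 were above 0, and 0.23 over the 28 accessory genes, of which 23 were above 0. These are medians over genes in 2 libraries and carry no test.

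Ndufv1, the flavin-binding subunit that oxidises NADH, had 2128 reads in ctrl and 1999 in M2, or 77.5 and 69.4 CPM (log2 difference -0.16, 95% interval -0.25 to -0.07). Its partner Ndufv2 had 2043 and 1925 reads (-0.15, -0.25 to -0.06). Ndufs1, the largest iron-sulfur subunit, had 2958 and 2760 reads (-0.17, -0.24 to -0.09). These 3 genes of the NADH-oxidising end stood at 0.889 to 0.898 of their ctrl level in M2, lower beyond counting error and short of a fold of 1.3.

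Ndufs3, which joins that end to the rest of the arm, had 713 and 709 reads (-0.08, -0.23 to 0.07), and its interval spanned 0. Ndufs7, an iron-sulfur subunit at the ubiquinone site, had 521 and 493 reads (-0.15, -0.33 to 0.03). Ndufs8, which carries the iron-sulfur clusters before that site, had 412 and 563 reads (0.38, 0.20 to 0.57) and was called higher at a fold of 1.3 (adjusted p = 0.00014, exact binomial test). It sat at the very edge of that fold, and the call was lost under 6 of 12 other settings.

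The accessory subunits hold complex I together and assist its assembly. The highest difference among them was that of Ndufa2, with 375 reads in ctrl and 618 in M2, or 13.7 and 21.4 CPM (0.65, 0.46 to 0.84, adjusted p = 1.5e-11, exact binomial test). Ndufa1, a small membrane subunit needed for assembly, had 422 and 671 reads (0.60, 0.42 to 0.78). Ndufa12 had 1235 and 1853 reads (0.52), Ndufs6, a zinc-binding subunit, had 1283 and 1859 (0.47), and Ndufa8 had 527 and 738 (0.42, 0.25 to 0.58). These accessory genes and Ndufs8 make up the 6 that were called higher. The call of Ndufa8 was lost with plain library totals (0.36) and with the trend on gene length (0.35) or coding length (0.33) removed, and that of Ndufs6 with the trend on coding length removed (0.37).

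Ndufa11, a membrane subunit at the junction of the arms, was the only complex I gene called lower, from 1091 to 850 reads (-0.43, -0.56 to -0.30, adjusted p = 3.2e-10, exact binomial test). The call held under all 12 other settings that kept the binomial test. Of the 50-base words in its transcripts, 5.4% also occur in Vmac and Ndufa11b. Vmac, the only one of the pair found in the table, had 1044 and 627 reads, and its part in the Ndufa11 counts was not tested. The next lowest was Ndufb5 with 943 and 844 reads (-0.23, -0.36 to -0.09). Per length, Ndufa6 had the highest level in ctrl (87.5 RPKM, and 95.4 in M2) and Ndufs6 the highest in M2 (74.3 RPKM in ctrl and 102.6 in M2).

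Complex II, succinate dehydrogenase, is also an enzyme of the tricarboxylic acid cycle and has no subunit from mitochondrial DNA. None of its 4 genes was called at a fold of 1.3, and their median was -0.02. Sdha, the flavoprotein that binds succinate, had 5644 reads in ctrl and 5233 in M2, or 205.5 and 181.6 CPM (-0.18, -0.23 to -0.12). Sdhb, the iron-sulfur subunit, had 735 and 775 reads (0.01, -0.14 to 0.15). Of the membrane anchors, Sdhc had 1467 and 1491 reads (-0.05, -0.15 to 0.06) and Sdhd had 820 and 987 (0.20, 0.06 to 0.33). The subunits of this complex thus pointed both ways, Sdha lower and Sdhd higher beyond counting error.

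Complex III, the cytochrome bc1 complex, had 9 genes, none called at a fold of 1.3, and a median of 0.14. The core proteins Uqcrc1 and Uqcrc2, which face the matrix, were both below 0, with 2754 and 2708 reads (-0.09, -0.17 to -0.02) and with 2371 and 2413 reads (-0.04, -0.13 to 0.04). The other 7 genes were all above 0, between 0.03 and 0.32. The catalytic Cyc1, which carries cytochrome c1, had 1075 and 1241 reads (0.14, 0.02 to 0.26), and Uqcrfs1, the Rieske iron-sulfur protein, had 855 and 914 (0.03, -0.11 to 0.16). Of the small subunits, Uqcr11 had 483 and 550 reads (0.12, -0.06 to 0.30). The highest differences were those of Uqcrq and Uqcrh. Uqcrq had 689 and 903 reads (0.32, 0.18 to 0.47), and Uqcrh, the hinge protein, had 2189 and 2858 (0.32, 0.23 to 0.40). Uqcrb, which helps to form a ubiquinone site, had the highest level per length of this complex, 133.9 RPKM in ctrl and 152.6 in M2. Of its 50-base words 25.5% also occur in other annotated genes.

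Complex IV, cytochrome c oxidase, had the highest median of the complexes, 0.33 over 15 tested genes, with 4 called higher at a fold of 1.3 and 0 lower. Over members with at least 10 CPM in both libraries its median was 0.22, beside 0.195 for complex I. That set leaves out the low isoforms Cox4i2, Cox6b2 and Cox7a1, of which Cox4i2 and Cox6b2 are among the called genes. Of the 12 tested genes that are not tissue isoforms, 10 were above 0, and Ndufa4 and Cox7a2l were below. The summed reads of complex IV rested on these abundant genes and differed by 0.17 (0.15 to 0.19).

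Cox5b, a zinc-binding subunit on the matrix side, had 3047 reads in ctrl and 4389 in M2, or 111 and 152 CPM (0.46, 0.39 to 0.52, adjusted p = 1.1e-40, exact binomial test). Cox5a, its neighbour in the complex, had 1405 and 1960 reads (0.41, 0.31 to 0.51). The call of Cox5a was lost with plain library totals (0.35) and with the trend on gene length (0.35) or coding length (0.32) removed, and that of Cox5b with the trend on coding length removed (0.36). Cox8a had the highest level per length of all 84 genes, 281.7 RPKM in ctrl and 310.5 in M2, from 4217 and 4876 reads (0.14, 0.08 to 0.20). Ndufa4, once counted with complex I and now placed in complex IV, had 2022 and 1871 reads (-0.18, -0.27 to -0.09). Cox7a2l, which links complex III with complex IV in supercomplexes, had 3932 and 3555 (-0.21, -0.28 to -0.15).

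The isoforms of complex IV gave the largest relative difference. Cox4i2, at chr2:152754173-152765037 on the plus strand of GRCm38, is the isoform known from lung and from low oxygen. It had 49 reads in ctrl and 181 in M2, or 1.78 and 6.28 CPM. It was 3.47-fold higher in M2 (log2 1.79, 1.35 to 2.30, adjusted p = 5.5e-17, exact binomial test). Cox4i1, the isoform of most tissues, had 2995 and 3443 reads (0.13, 0.06 to 0.20). Per length, Cox4i2 made up 3.12% of the Cox4 reads in ctrl (2.32% to 4.09%) and 9.37% in M2 (8.13% to 10.7%). Cox4i1 thus remained the main isoform in both libraries, at 70.3 and 77.1 RPKM beside 2.26 and 7.97 RPKM of Cox4i2. No 50-base word of Cox4i2 is shared with another annotated gene.

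Cox6a2, the isoform of heart and skeletal muscle, went from 0 reads in ctrl to 8 in M2. It had too few reads to be tested, and a count of 0 allows up to 3 reads, or 0.109 CPM, in ctrl, below its 0.278 CPM in M2. Cox6a1 had 1681 and 2233 reads and held 100% and 99.6% of its family per length. Cox7a1, another muscle isoform, had 19 and 33 reads (0.70, -0.13 to 1.62, adjusted p = 0.15, exact binomial test), beside 441 and 477 reads of Cox7a2 (0.04, -0.15 to 0.23). Cox6b2, known from testis, had 17 and 35 reads (0.93, 0.10 to 1.90). It was called at a fold of 1.3 with an adjusted p of 0.048 (exact binomial test). This call was lost with plain library totals, with all genes of at least 1 read tested, and with the trend on gene length or coding length removed. Its counterpart Cox6b1 had 918 and 1231 reads (0.35, 0.23 to 0.48).

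Of the remaining isoforms, Cox8b, known from heart, had 0 and 1 read, and Cox7b2 and Cox8c, known from testis, had 0 in both libraries. A count of 0 allows up to 0.169% of the Cox7b family reads in ctrl and 0.128% in M2 for Cox7b2. For Cox8c it allows 0.0711% and 0.0615% of the Cox8 reads. Cox7b had 1774 and 2345 reads (0.33, 0.24 to 0.42). Each of the tissue isoforms Cox4i2, Cox6a2, Cox6b2, Cox7a1, Cox7b2, Cox8b and Cox8c thus stayed at or below 9.37% of its family per length in both libraries. For Cox7a1 this holds with Cox7a2l, at 124.8 and 107.5 RPKM, counted in the family. Beside Cox7a2 alone, Cox7a1 stood at 1.29 and 2.14 RPKM against 17.0 and 17.5.

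Skeletal muscle genes moved beside these low isoforms. The summed level of 5 muscle markers was 10.6 CPM in ctrl and 26.6 CPM in M2, and 3 of the 5 were higher at the 2-fold thresholds. Acta1 had 118 and 389 reads, Myh4 43 and 114, Mb 53 and 139, and Tnnt3 72 and 119, while Ckm, creatine kinase of muscle, had 6 in both. The 3 brown adipocyte markers summed to 5.83 and 14.9 CPM, most of it from Dio2 (118 and 355 reads). Cidea had 37 and 68 reads, and Ucp1, the defining gene of these cells, had 5 in both. The part of such cells in the reads of Cox6a2 and Cox7a1 was not tested. Fibroblast markers summed to 320 and 132 CPM, white adipocyte markers to 9.65 and 0.590 CPM, and endothelial markers to 2.002 and 2.707 CPM. The fibroblast genes went both ways. Col1a1 (-0.98), Col1a2 (-1.68) and Col3a1 (-2.61) were lower, as was Lum (-1.53) with only 10 and 3 reads. Dcn (1.53) and Pdgfra (0.37) were higher. At the 2-fold thresholds, 2 of these fibroblast genes were called lower and 1 higher. Of the white adipocyte genes, Lep went from 198 to 6 reads and Fabp4 from 62 to 10, while Adipoq, Plin1 and Cidec had at most 2 reads in each library. Of the endothelial genes, Pecam1 went from 33 to 76 reads, Cdh5 from 11 to 2 and Kdr from 11 to 0.

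**Figure D3:**
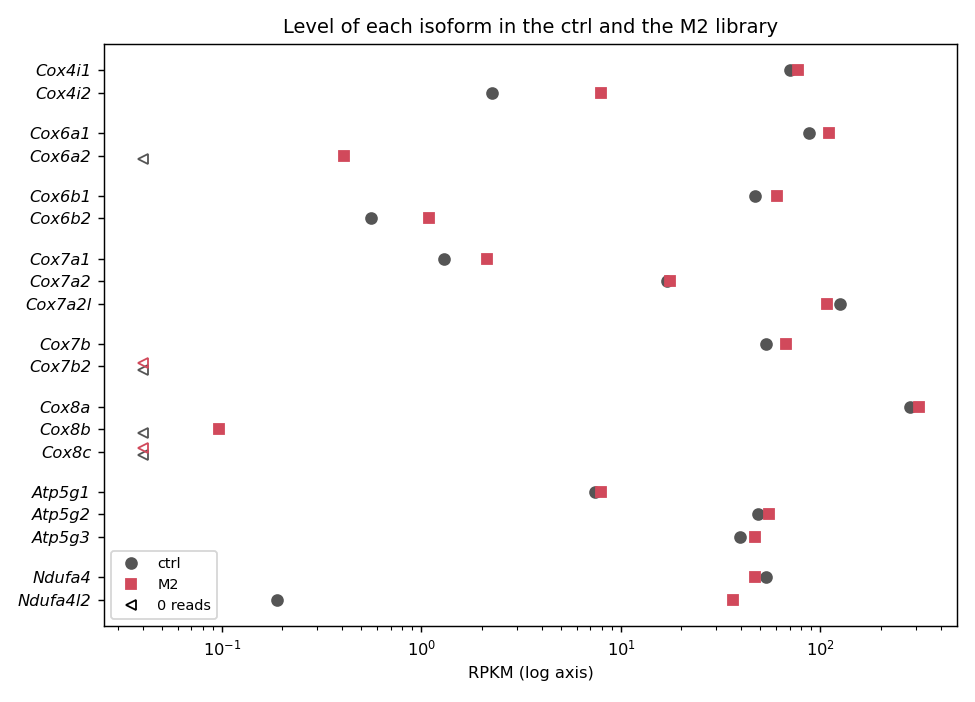
Level of each isoform in RPKM (log axis) in ctrl (grey circles) and M2 (red squares), grouped by family, with open triangles for 0 reads. The main isoform of each Cox family lies close in both libraries, whereas Ndufa4l2 moves from 0.190 to 36.4 RPKM and Cox4i2 from 2.26 to 7.97 RPKM.

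Ndufa4l2, the paralog of Ndufa4 that the choice of names leaves out, had 5 reads in ctrl and 1007 in M2 (log2 7.32, 95% interval 6.36 to 9.21). Per length it made up 0.355% of the pair in ctrl (0.115% to 0.825%) and 43.6% in M2 (41.7% to 45.5%). Ndufa4 itself stayed the more abundant of the pair at 53.3 and 47.0 RPKM. This paralog is known to lower complex I activity in cells at low oxygen.

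Complex V, the ATP synthase, had 15 genes with a median of 0.15 and 1 call, Atp5k, higher at a fold of 1.3. The catalytic head, F1, had the more level genes, with a median of 0.07 over 5, against 0.17 over the 10 genes of the stalk and the membrane part. Atp5b, the subunit that makes ATP, had 18686 reads in ctrl and 20561 in M2, or 680 and 713 CPM (0.07, 0.04 to 0.10). Atp5a1, its partner in the head, had 15278 and 15054 reads (-0.09, -0.12 to -0.06) and 177.4 and 166.6 RPKM. Atp5a1 thus had the highest level per length of the complex in ctrl, and Atp5b, with 160.6 and 168.4 RPKM, in M2. The central genes of the head therefore lay on both sides of 0, and with plain library totals the summed reads of complex V went from 0.05 to -0.008.

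Atp5k, the e subunit that joins ATP synthase into dimers, had 114 and 183 reads (0.61, 0.27 to 0.96, adjusted p = 0.0010, exact binomial test). Among the genes with at least 10 CPM in a library, Atp5j2, the f subunit, stood highest with 1157 and 1511 reads (0.32, 0.20 to 0.43), followed by Atp5e, the epsilon subunit, with 406 and 519 (0.28, 0.09 to 0.48). Atp5l, the g subunit, had 2061 and 2128 reads (-0.02, -0.11 to 0.07). The genes Atp5g1, Atp5g2 and Atp5g3 encode the same c subunit of the rotor. Per length, they made up 7.75%, 50.9% and 41.4% of their family in ctrl, and 7.22%, 50.1% and 42.6% in M2. Their own differences were 0.10, 0.19 and 0.25, so the mix of the c subunit genes was nearly the same in both libraries. Of the 50-base words of Atp5g2, 38.3% also occur in other annotated genes.

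Atp5s and Atp5sl carry the name of the ATP synthase, but are not subunits of it and were kept apart. Atp5s had 183 reads in ctrl and 116 in M2, or 6.66 and 4.03 CPM (-0.72, -1.07 to -0.38, adjusted p = 5.5e-05, exact binomial test). It was the lowest of the 80 tested genes. Atp5sl had 730 and 786 reads (0.04, -0.11 to 0.18).

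The complexes summed over their genes gave a second view that abundant genes dominate. The log2 difference of the summed reads was 0.13 for complex I (0.12 to 0.15), -0.10 for complex II (-0.14 to -0.06), 0.12 for complex III (0.08 to 0.15), 0.17 for complex IV and 0.05 for complex V (0.04 to 0.07). All 84 genes together differed by 0.09 (0.08 to 0.10), from 5575 to 5948 CPM. Sdha decided the value of complex II, which was 0.04 without it.

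The differences varied with the length of the coding sequence. The 36 tested members with fewer than 400 coding bases had a median of 0.28, the 28 members with at least 400 and under 800 bases one of 0.17, and the 15 members with 800 or more one of 0.03, which was -0.03 with plain library totals. All tested genes of the same lengths followed the same order, with medians of 0.12 (812 genes), 0.08 (2491 genes) and -0.02 (10846 genes). Over 79 members the difference correlated with log2 coding length at Pearson's r = -0.33 and Spearman's rho = -0.42, as a description across genes that share both libraries. The core subunits of complex I, the core proteins of complex III and Sdha are among the long genes, and the small accessory subunits among the short ones. With the trend on coding length removed over all genes, an alternative added after the data were seen, 5 members in place of 11 were called higher at a fold of 1.3. The median of all members was then 0.09, that of the complex I core subunits -0.15 and that of the accessory subunits 0.13. The share of all genes called under that setting is not given here.

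**Figure D4:**
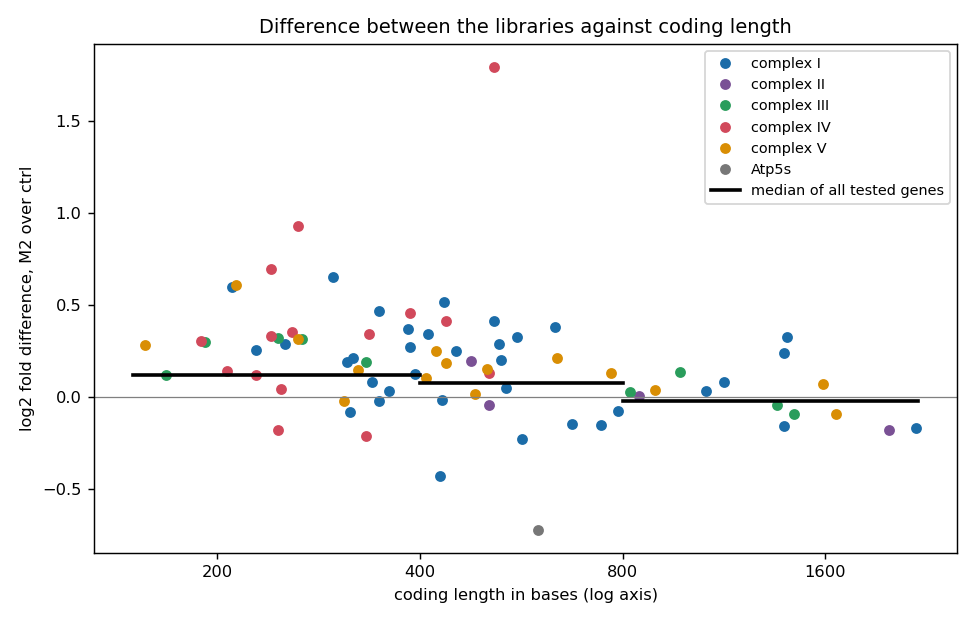
Log2 fold difference, M2 over ctrl, of 79 members against coding length in bases (log axis), coloured by complex, with black lines for the median of all tested genes in 3 length classes. Points under 400 bases lie mostly above 0 (31 of 36), while 9 of the 15 points at 800 bases and over do.

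The genes that build, feed and control the chain were set beside its subunits. The 49 assembly factors, which insert cofactors and join subunits, had a median of -0.06, with 22 above 0. At a fold of 1.3, 7 of the 49 were higher and 3 lower. Over all tested genes, 17.3% were higher and 16.0% lower at that fold. Those higher were Higd1a (0.95), Cox17, the copper chaperone of complex IV (0.73), Uqcc2 (0.55), Cox11 (0.47), Tmem70 (0.44), Ndufaf2 (0.43) and Sdhaf4 (0.40). Higd1a, a small protein bound to complexes III and IV, had 555 reads in ctrl and 1128 in M2. Those lower were Lyrm7 (-0.66), Ndufaf8 (-0.43) and Taco1 (-0.40). The calls of Cox11, Ndufaf2, Tmem70 and Sdhaf4 were lost with plain library totals.

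Among 8 mobile carriers and enzymes that use ubiquinone, Dhodh of pyrimidine synthesis was lower at a fold of 1.3, with 349 and 262 reads (-0.48), and the list had a median of 0.04. Cycs, cytochrome c, had 2645 and 3545 reads (0.35, 0.28 to 0.43). Atpif1, the inhibitor of ATP synthase, had 1955 and 2415 (0.24, 0.15 to 0.32). The 13 genes of the tricarboxylic acid cycle had a median of 0.06, with Ogdh, of the oxoglutarate dehydrogenase complex, lower (3473 and 2499 reads, -0.54).

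Of the 12 regulators, 1 passed the 2-fold thresholds. Ppargc1b, a coactivator of mitochondrial genes, had 362 reads in ctrl and 169 in M2 (-1.16, -1.44 to -0.90, adjusted p = 1.5e-18, exact binomial test). Its relative Ppargc1a had 196 and 282 reads (0.45, 0.19 to 0.73, adjusted p = 0.0018, exact binomial test) and was higher at a fold of 1.3. The coactivators of this family thus differed in opposite directions, and the third, Pprc1, stood at 0.11 with an interval that just spanned 0.

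Nrf1, whose letters are shown above, had 829 and 1105 reads (0.34, 0.21 to 0.48). Gabpa and Gabpb1, which form the factor also called NRF2, differed by 0.17 and 0.11, Esrra, a nuclear receptor that works with the coactivators, by 0.25, and Yy1 by 0.09. Of the genes that transcribe mitochondrial DNA, Tfam differed by 0.10, Tfb1m by -0.23, Tfb2m by -0.15 and Polrmt by -0.15, all 4 with intervals that span 0. The letters CCGGAAG of the GABPA factor occurred on either strand in 16 of 69 promoter windows of members (23.2%, against 12.9% of all), AAGATGGC of YY1 in 11 (15.9%, against 3.57%) and TGACGTCA of CREB in 4 (5.797%, against 2.54%). Members with and without them had medians of 0.24 and 0.15 for GABPA, 0.26 and 0.17 for YY1, and -0.03 and 0.20 for CREB.

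The subunits encoded in mitochondrial DNA lay on the other side of 0. Their 13 genes had a median of -0.12, with 3 above 0, and their summed reads differed by -0.17, from 46585 to 41377 CPM. Mt-Nd5 of complex I had 227727 and 196427 reads (-0.28), mt-Cytb of complex III 172334 and 172614 (-0.07) and mt-Co1 of complex IV 331098 and 319620 (-0.12). At a fold of 1.3, mt-Nd3 was lower (1308 and 862 reads, -0.67) and mt-Atp6 higher (254 and 421 reads, 0.66). For mt-Nd3, mt-Nd4l, mt-Atp6, mt-Co2 and mt-Co3, 98.0% to 100% of the 50-base words also occur in other annotated genes, as do 62.2% for mt-Nd4 and 51.1% for mt-Co1, so their counts, and both calls, are uncertain. The median was -0.18 with plain library totals, -0.19 with the gene-length trend removed and -0.27 with the trend on mean expression removed. The ratio of nuclear to mitochondrial transcripts compares genes of unlike length and copy number and was not formed.

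Ribosomal protein genes are also many and abundant. The 78 mitochondrial ribosomal protein genes had a median of 0.09 and 71.8% above 0, with 6 higher and 0 lower at a fold of 1.3. The 85 tested cytosolic ribosomal protein genes had a median of 0.09 and 74.1% above 0, with 2 higher and 0 lower. With plain library totals these medians were 0.04 and 0.03, and with the trend on coding length removed 0.04 and 0.01. A difference of the respiratory chain from these lists was not tested.

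**Figure D5:**
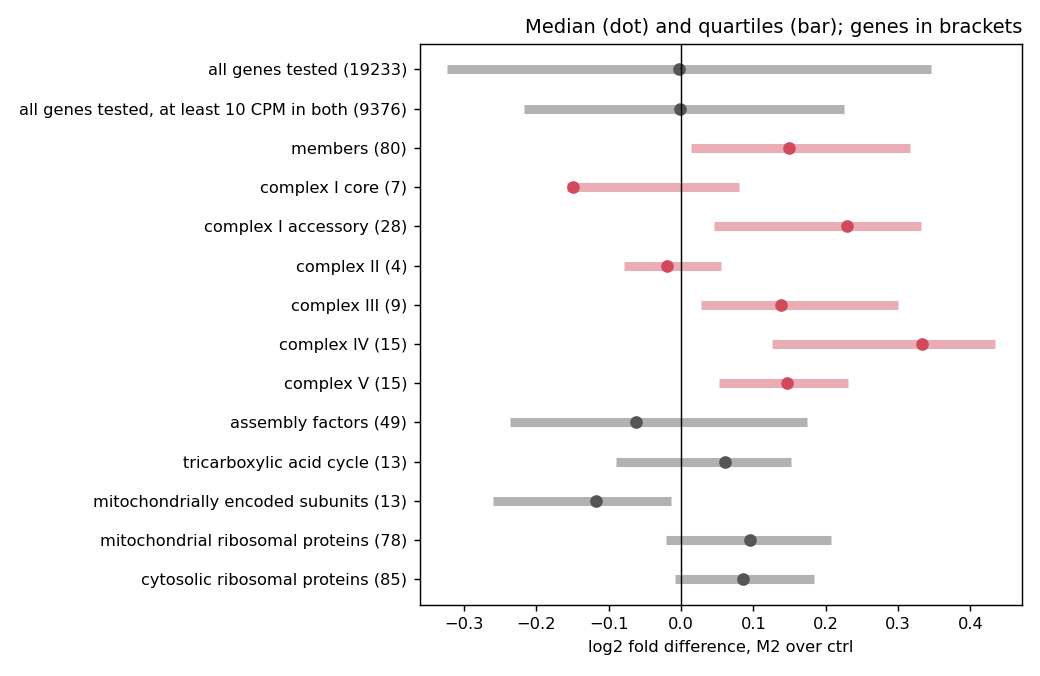
Median (dots) and quartiles (bars) of the log2 fold difference, M2 over ctrl, for all tested genes (grey), the respiratory chain genes and their complexes (red) and related lists (grey), with the number of genes in brackets. Complex IV has the highest median, 0.33 (0.22 over members with at least 10 CPM in both libraries). The mitochondrially encoded and core complex I subunits have the lowest, -0.12 and -0.15.

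The median was also taken without the genes whose reads others could share. For 49 members with under 5% of their 50-base words in other annotated genes the median was 0.15, and for 57 members whose exons overlap no other listed gene it was 0.19. In 7 members at least 20% of the words are shared: Atp5o, Atp5g2, Ndufb6, Ndufa13, Uqcrb, Cox7c and Ndufs5. For these, the counting of reads with several matches is not given in the sources used here.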

How the data were processed

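RNA of 1 ctrl and 1 M2 library was sequenced. The authors deposited raw counts of reads for each gene, with no scaling, in the layout that featureCounts writes. The labels name the builds GRCm38 and mm10. The aligner, annotation, strand setting and treatment of multiply matched reads are not given in the sources used here, so reads of overlapping genes and paralogs are uncertain. Extraction is described differently in the labels (a column kit) and in the methods (RNAiso Plus).

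Library sizes were scaled by TMM in edgeR 4.0.16 under R 4.3.3 (factors 1.02 for ctrl, 0.980 for M2). Genes with at least 10 reads over both libraries entered an exact binomial test, two-sided (scipy 1.17.1), with Benjamini-Hochberg adjustment over 19233 genes. Log2 differences use a pseudocount of 1, and intervals are 95% Clopper-Pearson, except the Wilson intervals of the members' share of all reads. With 1 library per group no dispersion could be estimated, so quasi-likelihood tests and DESeq2 were not used. Coding lengths and shared 50-base words came from GENCODE M21. Exon overlaps between genes came from the exon positions deposited with the counts. Ndufa4 was counted with complex IV. The values of 1 core subunit of complex I are not reported here, though it is in the counts and medians.

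Named were, per complex, the 2 highest and 2 lowest genes with at least 10 CPM in a library and the gene with the most reads per kilobase. Core and catalytic subunits, isoforms, genes with at most 3 reads in a library, 2-fold calls and regulators were named as well. Other genes named, among them the further 1.3-fold calls, were chosen after their values were seen. The members and lists were chosen with earlier results of these data known.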

Additional observations from a re-analysis of the deposited data

How the results depend on the processing

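No paired analysis was possible because ctrl and M2 are 1 library each. With genes of at least 1 read tested, 2 members were higher at 2-fold (Cox6a2 with Cox4i2). With an assumed coefficient of biological variation, in the exact test of edgeR, 1 was called at 2-fold with 0.1 and 0.2, and 0 with 0.4. At 1.3-fold, 3, 1 and 0 were then higher and 1, 0 and 0 lower. Higher at 1.3-fold were 7 with plain library totals, 7 with the gene-length trend removed and 5 with the coding-length trend removed. The shares of all genes called under these other settings are not given here. These counts therefore do not show whether members lost more calls than other genes. Plain totals moved the median of all genes by -0.059 and the summed difference to 0.075 for complex I, -0.16 for II, 0.057 for III, 0.11 for IV, -0.0076 for V and 0.034 for all members. Complex II without Sdha came to 0.037. No direction that was called reversed. RLE, TMMwsp and upper-quartile factors and a pseudocount of 0.5 changed no 1.3-fold call among 177 genes, the tested members, Ndufa4l2 and the genes of the lists other than ribosomal proteins. Depth limits the isoforms with under 50 reads.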
